A study of Cyprinus carpio with 6 samples.

Results

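Germ plasm is the maternally deposited RNA and protein that sets aside the future germ cells of fish embryos, and the piRNA pathway is the small RNA system that silences transposons in the germ line. PIWI proteins carry the piRNAs, nucleases and a methyltransferase shape them, and Tudor domain proteins bind methylated PIWI proteins and hold the machinery together in granules. In zebrafish, germ plasm comes from the egg, so its mRNAs are already present before the embryo transcribes its own genes. The genes described here are those of the common carp (Cyprinus carpio) annotation whose symbol starts with 1 of 11 names of this machinery (tdrd, piwil, nanos, dazl, dnd1, mael, mov10l, asz1, pld6, henmt and gtsf) and that had a count in any library. They are 10 of 40568 counted loci and fell under 5 of the 11 names. These are the Tudor domain genes tdrd5, tdrd6, tdrd9, tdrd12 and tdrd15, the piRNA processing genes mov10l1, pld6 and henmt1, and the translational repressor genes nanos1 and nanos2. No gene under the other 6 names was analysed here. A LOC number in place of a name was carried by 24674 of the 32765 annotated genes with a count, and no such gene could join the set.

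RNA-Seq was performed on whole embryos at the mid-blastula stage, with 3 libraries of embryos sired by fresh sperm (0 days after stripping) and 3 of embryos sired by sperm stored for 14 days. The same males gave both kinds of sperm and a single female gave the oocytes, and no source used here ties a library to a male. The p-values therefore measure the spread between these libraries only. Total estimated counts were 14993459 to 15632387 per library, and each gene has an estimated count and an FPKM, which is the count per kilobase of effective transcript length, scaled to library size. Marker genes were read beside the labelled stage. The early embryonic transcription factor genes nanog and pou5f3 stood at 735 to 866 and 651 to 812 CPM (library-scaled counts, with TMM factors), and the maternal cyclin gene ccnb1 at 1845 to 2202 CPM. Of the enveloping layer genes, krt4, a keratin gene, had 0 to 1 counts and grhl3, a transcription factor gene, had 12 to 50 counts per library. The organiser genes chrd and gsc had 0 to 2 counts. Of the other genes listed as zygotic blastula markers, sox32 had 0 to 1 and mxtx2 0 to 10 counts. foxh1 and sox19b stood at 50.9 to 59.8 and 37.4 to 68.5 CPM. Whether the mRNA of nanog, pou5f3, foxh1 and sox19b was maternal or zygotic was not tested. Of the other maternal markers, cth1 and btg4 stood at 906 to 1056 and 14.1 to 19.4 CPM, and org had 0 to 1 counts. All libraries are of 1 stage, so these levels cannot set it apart from a neighbouring stage. In whole embryos, fewer cells of a type and less RNA per cell cannot be told apart.

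All 10 genes are protein-coding in the annotation of assembly ASM1834038v1. Common carp is allotetraploid, with subgenomes A and B, and 7 of the 10 genes lay on B chromosomes. Among all protein-coding genes with a symbol other than a LOC number, 67.0% of those placed on A or B chromosomes lay on B, a share close to that of the set. tdrd6 (chromosome B20, 20308159 to 20318580) and henmt1 (B20, 19392575 to 19395293) lay on the same chromosome with 49 other genes between them. tdrd9 lay on B13 from 20871169 to 20886772, tdrd5 on B22 from 22866937 to 22883630, mov10l1 on B2 from 1529118 to 1555150, nanos1 on B14 from 9838293 to 9840931 and tdrd12 on B25 from 20242846 to 20262424. On the A chromosomes were pld6 (A1, 31813757 to 31820510), tdrd15 (A20, 25565215 to 25573461) and nanos2 (A5, 29864065 to 29865046). tdrd5 was annotated with 2 transcripts and each of the other genes with 1. The span of pld6 overlapped that of rab3da by 2264 bases, and rab3da had 0 to 8 counts per library. The spans of tdrd6 and LOC109067952 overlapped by 48 bases, and those of henmt1 and fam102bb by 7 bases. Whether strand was used in counting is not given in the sources used here, so reads from such stretches cannot be told apart.

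The genes fell into a higher and a lower group by level per length. Above 5 FPKM in the mean over the 6 libraries were 6 genes, namely tdrd9, tdrd6, henmt1, tdrd5, mov10l1 and pld6. The other 4 were under 0.5 FPKM. Counts alone set pld6 and tdrd15 less far apart, at 47.7 to 97.2 and 22 to 27 per library. Their effective lengths were 523 to 539 bases for pld6 and 5418 to 5434 bases for tdrd15. The 6 stood at the 74.5 to 87.9 percentile of the mean FPKM of all annotated genes with a count. The summed share of the 10 genes was 0.0358 ± 0.000731% of all counts without sperm storage and 0.0347 ± 0.00182% with it (SD, n = 3 libraries each). tdrd6 and tdrd9 alone gave 70.4 to 74.6% of these counts.

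**Figure D1:**
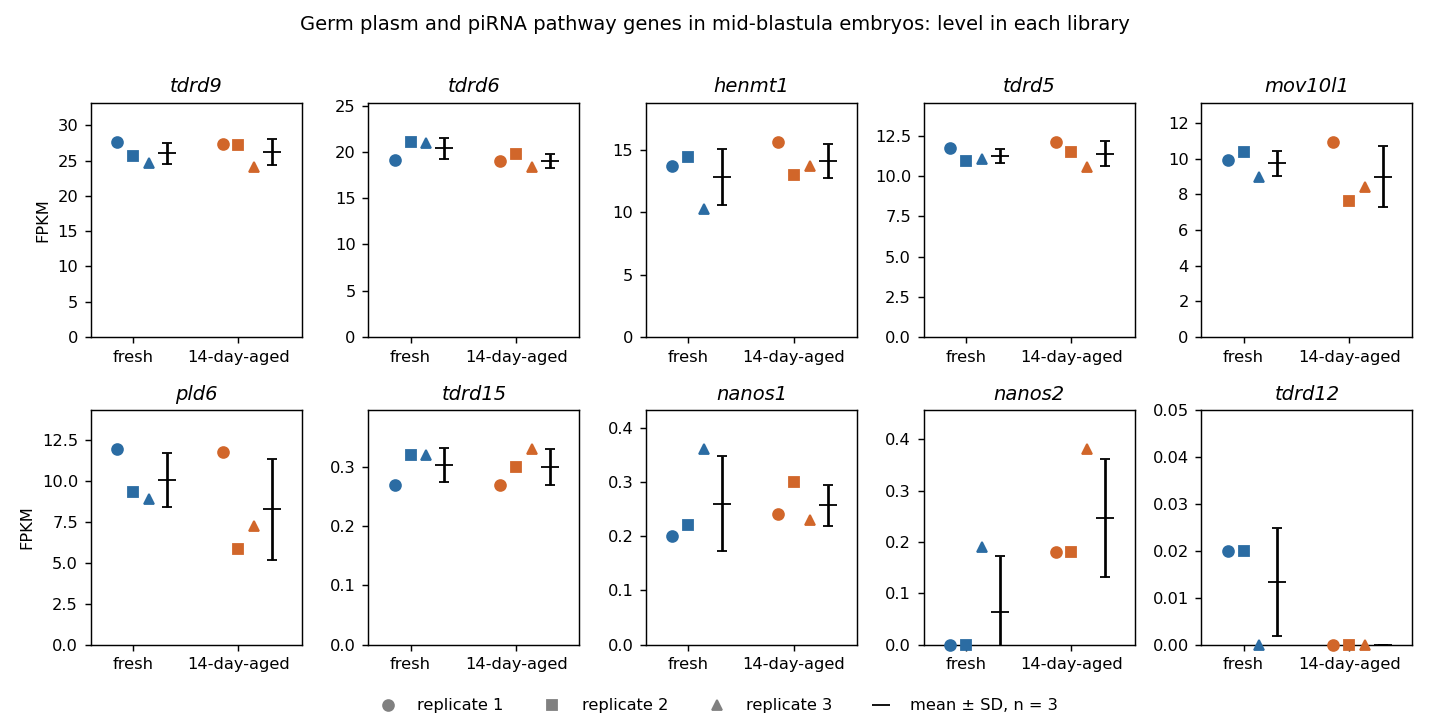
FPKM (vertical axes, each from 0) of the 10 genes in each library, with circles, squares and triangles for replicates 1, 2 and 3, blue for embryos from fresh and orange for embryos from 14-day-aged sperm, and black bars for the mean ± SD of 3 libraries. The 6 genes above 5 FPKM are tdrd9 to pld6, the other 4 are at 0.38 FPKM or less in every library, and in none of the 10 do the groups separate.

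In zebrafish, tdrd6 encodes a protein with many Tudor domains that binds Bucky ball, the organiser of the germ plasm. The count of tdrd6 was 2103, 2327 and 2321 with fresh sperm and 2162, 2201 and 2004 with sperm aged for 14 days. It had the highest count of the set in every library, and on the TMM-scaled CPM its groups overlapped through replicate 1 from fresh sperm. The level was 150 ± 10.6 CPM without storage and 138 ± 3.73 CPM after it (SD, n = 3), a log2 fold change of -0.11 (95% interval -0.26 to 0.036, adjusted p = 0.9998 from edgeR). The interval reaches from 0.836 to 1.03 times the level without storage. Without replicate 1 from fresh sperm the log2 fold change was -0.16 (unadjusted p = 0.0265 from edgeR) and without replicate 3 of that group it was -0.069 (unadjusted p = 0.309). The adjusted p from edgeR was 0.993 or more whenever 1 library was left out.

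tdrd9 encodes a helicase with a Tudor domain that silences transposons in mouse male germ cells. Its count was 1804, 1675 and 1616 without storage and 1842, 1799 and 1563 after it. Replicate 3 had the lowest count of each group. On TMM-scaled CPM the lowest library from fresh sperm was replicate 2, at 109.7 against 110.3 CPM for replicate 3. Per length tdrd9 was the highest of the set, at 26.0 ± 1.505 and 26.3 ± 1.83 FPKM (SD, n = 3). Its range of 24.2 to 27.7 FPKM did not overlap the 18.3 to 21.1 FPKM of tdrd6. The difference between the embryo groups was 0.0036 on the log2 scale (95% interval -0.13 to 0.14), or 0.913 to 1.10 times the level without storage. The ratio of tdrd9 to tdrd6 in FPKM, which does not depend on scaling between libraries, was 1.45, 1.22 and 1.18 without storage and 1.44, 1.38 and 1.32 after it, and the groups overlapped.

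tdrd5 encodes a Tudor protein with LOTUS domains, needed in the mouse to build the granules of male germ cells. It had 648, 605 and 613 counts without storage and 690, 641 and 580 after it. By the spread of CPM within groups relative to the mean, tdrd5 had the lowest observed value of all tested genes of the set, a rank that was not tested. Its groups overlapped. The levels were 11.3 ± 0.420 and 11.4 ± 0.773 FPKM (SD, n = 3), with a log2 fold change of 0.0068 (95% interval -0.15 to 0.16).

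tdrd15, another gene of the Tudor family, was far lower at 0.303 ± 0.0289 FPKM without and 0.30 ± 0.030 FPKM with storage (SD, n = 3). Its counts were 22, 26 and 26 against 23, 25 and 27, the same range within a single count at either end. Its log2 fold change was -0.0038, and so few counts left an interval from -0.54 to 0.53. tdrd12, a helicase gene that zebrafish need for germ cell development, had 1 count in replicates 1 and 2 from fresh sperm and 0 in the other 4 libraries. A count of 0 allows up to 3 counts per library, so tdrd12 gives no difference at this depth.

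The 3 piRNA processing genes stood between 5 and 16 FPKM. In animals, mov10l1 encodes a helicase that feeds piRNA precursors into processing, pld6 encodes the nuclease of the mitochondrial surface known as Zucchini, and henmt1 encodes the methyltransferase that modifies the end of a finished piRNA. Reads for these genes had been divided between loci by the estimation, since their counts were not whole numbers in any of the 6 libraries. The counts of the 7 other genes were whole in every library. Non-whole counts in at least 1 library were seen in 47.3% of the 20523 tested annotated genes, and in an allotetraploid a near-identical second copy can share reads. Which locus shared reads with henmt1, mov10l1 or pld6 was not determined.

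henmt1 had 253, 264 and 188 counts without storage and 294, 240 and 250 after it. The lowest library was replicate 3 from fresh sperm and the highest replicate 1 from 14-day-aged sperm, and the groups overlapped. Its level was 12.8 ± 2.23 against 14.1 ± 1.38 FPKM (SD, n = 3), a log2 fold change of 0.13 (95% interval -0.19 to 0.45). With single libraries left out this difference ran from 0.0077, without replicate 3 from fresh sperm, to 0.21.

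mov10l1 had 503, 526 and 456 counts without storage and 573, 392 and 423 after it. Replicate 1 from 14-day-aged sperm was the highest of the 6 libraries and replicates 2 and 3 of that group were the lowest. The levels were 9.75 ± 0.719 and 9.0 ± 1.73 FPKM (SD, n = 3), with a log2 fold change of -0.13 (95% interval -0.43 to 0.18).

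pld6 had 97.2, 74.8 and 71.4 counts without storage and 96.2, 47.7 and 58.0 after it, the same order within the stored group as mov10l1. Replicate 1 of each group was high and replicates 2 and 3 from 14-day-aged sperm were the lowest. The levels were 10.1 ± 1.64 and 8.27 ± 3.10 FPKM (SD, n = 3), and the log2 fold change of -0.30 was the furthest from 0 in the set (95% interval -0.91 to 0.32). Single libraries moved the size of both differences in either direction. Without replicate 1 from 14-day-aged sperm they were -0.27 for mov10l1 and -0.60 for pld6, with unadjusted p-values of 0.0251 and 0.0306 in edgeR. Without replicate 2 of that group they were -0.016 and -0.10, with unadjusted p-values of 0.895 and 0.692 in edgeR. The adjusted p was 0.993 or more with any single library left out.

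The Nanos proteins are zinc finger translational repressors of germ cells, and both genes had few counts. nanos1 had 7, 8 and 13 counts without storage and 9, 11 and 8 after it, or 28 in each group, a scaled ratio of 0.982 (95% exact interval 0.561 to 1.72). nanos2, which in the mouse maintains male germ line stem cells, had 0, 0 and 2 counts against 2, 2 and 4. The ratio of its totals of 8 and 2 counts was 3.93 (95% exact interval 0.784 to 38.0), which includes no difference. These intervals and the limit for tdrd12 cover counting error only, and the 3 genes did not pass the filter on low counts. Without that filter edgeR gave unadjusted p-values of 0.935 for nanos1, 0.153 for nanos2 and 0.167 for tdrd12.

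By mean FPKM the order was tdrd9, tdrd6, henmt1, tdrd5, mov10l1, pld6, tdrd15, nanos1, nanos2 and tdrd12. Over the 6 libraries the ranges of tdrd9, tdrd6 and henmt1 followed each other without overlap. From henmt1 to pld6 each gene overlapped the next, although tdrd5 was above mov10l1 in 6 of 6 libraries. A gap separated pld6, at 5.83 FPKM or more, from tdrd15, at 0.33 FPKM or less, and the ranges of the 4 lowest genes overlapped from each to the next.

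The comparison of the embryo groups asks whether storage of the sperm went with another level of these mRNAs. Of the 10 genes, 7 passed the filter on low counts, with similar counts in both groups, and entered the quasi-likelihood test of edgeR, adjusted by Benjamini-Hochberg over 27342 genes. At an adjusted p under 0.05, 0 were higher and 0 lower after storage (every adjusted p = 0.9998 from edgeR), where 0.0146% of all tested genes were called, 0.00731% in each direction. At an unadjusted p under 0.05 there were also 0 of the 7, against 3.36% of all tested genes, and DESeq2 called 0 of the 7 at either limit, against 0.182% of its tested genes at an adjusted and 1.82% at an unadjusted p under 0.05. The groups did not overlap in 0 of the 7, against 8.56% of all tested genes (4.11% higher and 4.45% lower after storage). With 7 genes, each of these counts is near the background. Of the 7 log2 fold changes 3 were positive and 4 negative, with a median of -0.0038 beside a median of -0.00090 over all tested genes. They ran from -0.30 for pld6 to 0.13 for henmt1.

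**Figure D2:**
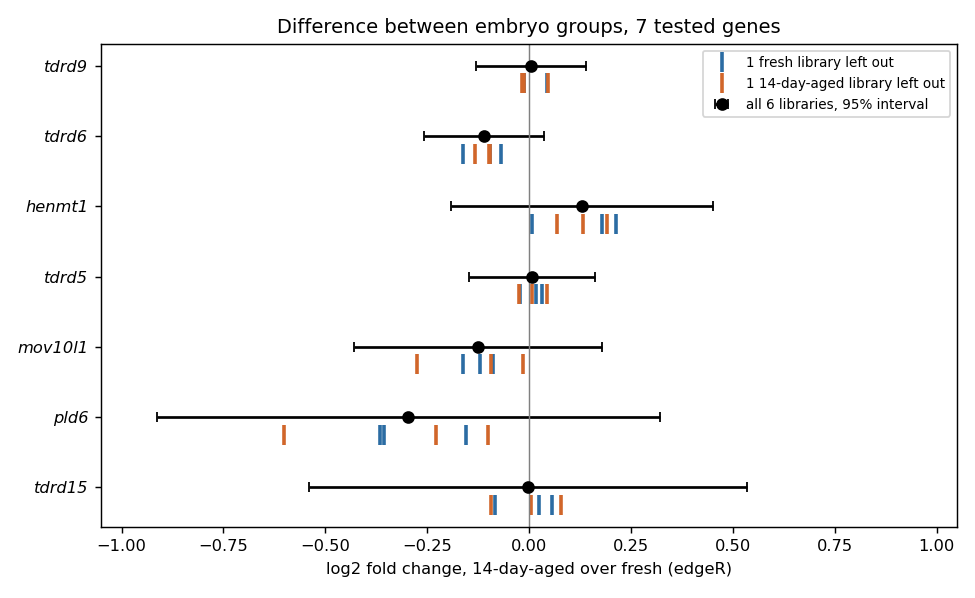
Log2 fold change of embryos from 14-day-aged over embryos from fresh sperm (horizontal axis) for the 7 tested genes, with points and bars for the edgeR estimate and its 95% interval, and ticks below for the fits that leave out 1 library (blue, a library from fresh sperm; orange, one from 14-day-aged sperm). All 7 intervals include 0, and the ticks of pld6 are the most widely spread, from -0.60 to -0.10.

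A missed threshold does not show equal levels, so the intervals are given. All 7 intervals lay within a 2-fold change in either direction, and 6 of the 7, those other than pld6, within a 1.5-fold change. For tdrd9 and tdrd5 the interval was within 0.903 to 1.12 times the level without storage. The widest was that of pld6, from 0.531 to 1.25 times.

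The observed spread between libraries also differed among the tested genes. Each value rests on 3 libraries per group, and differences in spread between genes were not tested. The CV (coefficient of variation) of CPM within groups was 4.10% for tdrd5, 4.55% for tdrd9 and 5.52% for tdrd6, and counting error alone would give 3.99, 2.41 and 2.14%. For tdrd15 it was 11.5%, under the 20.1% of counting error. The genes with divided reads had a higher CV, with 12.1% for henmt1, 12.7% for mov10l1 and 25.1% for pld6, against 6.35, 4.57 and 11.6% from counting. As a multiple of counting error their CV was 1.91, 2.77 and 2.16. For the genes with whole counts this multiple was 1.88 for tdrd9, 2.58 for tdrd6, 1.03 for tdrd5 and 0.572 for tdrd15. On this scale the classes overlapped. Over annotated genes with a mean count of at least 50 the median CV was 9.01% for the 7763 with non-whole counts in at least 1 library. It was 8.05% for the 7340 with whole counts, a smaller difference in CV of the same direction as in the set. These classes were not matched for count, and whether divided reads raised the spread was not tested.

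**Figure D3:**
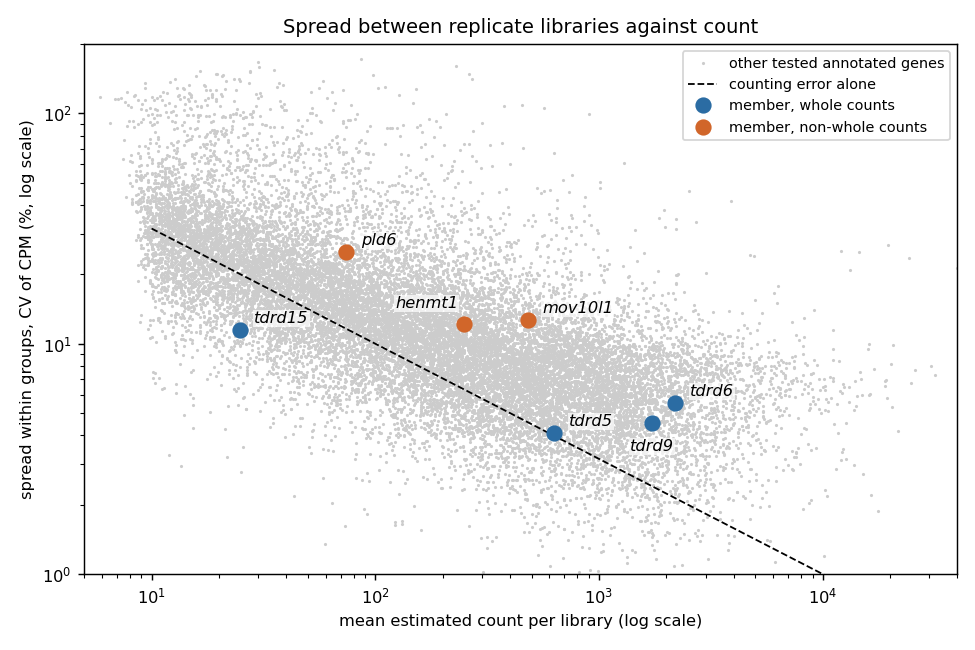
CV of CPM within groups (vertical axis, per cent, log scale) against the mean estimated count per library (horizontal axis, log scale) for the 7 tested genes of the set, blue where counts were whole and orange where they were not, over all other tested annotated genes in grey. The dashed line is counting error alone, and henmt1, mov10l1 and pld6 sit above it at 12.1, 12.7 and 25.1%. Also above it are tdrd6 and tdrd9 at 5.52 and 4.55%, while tdrd5 sits on it and tdrd15 below it.

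Related genes were taken from 4 lists chosen by symbol with earlier results of these data known. Of 21 other piRNA pathway symbols 6 had a count and 5 were tested. In edgeR 0 were called higher or lower, with 0 at an unadjusted p under 0.05 and 0 by DESeq2, and the median log2 fold change was 0.00019. The groups did not overlap in 2 of the 5, against 8.56% of all tested genes. These 2 went in opposite directions, with wdr77 lower and mybl1 higher after storage. For mybl1 the log2 fold change was 0.15 (95% interval -0.11 to 0.42). The most highly expressed were akap1b, a Tudor domain anchor protein of the mitochondrion, at 41.8 ± 4.40 FPKM without and 42.1 ± 6.27 FPKM with storage, wdr77, the partner of the methyltransferase that marks PIWI proteins, at 30.7 ± 0.490 and 26.6 ± 3.20 FPKM, and exd1, a piRNA biogenesis factor in the mouse, at 18.1 ± 0.590 and 18.6 ± 2.15 FPKM (SD, n = 3). For wdr77 the log2 fold change was -0.22 (95% interval -0.46 to 0.023).

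Of 23 other germ plasm and germ cell symbols 8 had a count and 5 were tested, with 0 called by edgeR or DESeq2, 0 at an unadjusted p under 0.05 and a median log2 fold change of 0.063. The groups did not overlap in 1 of the 5, namely buc2l, which was lower after storage, against 8.56% of all tested genes. buc2l, which by its symbol is related to Bucky ball, was the most abundant at 119 ± 3.20 FPKM without and 115 ± 2.73 FPKM with storage (SD, n = 3), 4.48 times the mean level of tdrd9. It had a log2 fold change of -0.064 (95% interval -0.18 to 0.051). The RNA-binding protein genes elavl2 and rbpms2b stood at 12.4 ± 0.637 against 13.0 ± 1.14 FPKM and at 11.4 ± 1.90 against 11.9 ± 0.909 FPKM. The genes cxcr4a and cxcl12a of this list had 6 to 20 counts per library.

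The microRNA pathway, which uses the Argonaute relatives of the PIWI proteins, had 7 of 15 symbols counted and tested. By edgeR or DESeq2 0 were called, and the median log2 fold change was 0.059. The groups did not overlap in 1 of the 7, against 8.56% of all tested genes. ago4 stood at 68.0 ± 6.16 and 71.5 ± 0.587 FPKM, ago3b at 19.9 ± 1.21 and 21.6 ± 1.303 FPKM and ago2 at 7.55 ± 0.276 and 7.56 ± 0.182 FPKM (SD, n = 3). At an unadjusted p under 0.05 there was 1 of the 7 in edgeR, tnrc6c1, against 3.36% of all tested genes. DESeq2 also had 1 of the 7 at that limit, against 1.82% of its tested genes. tnrc6c1 is named here after its value was seen, and it is also the gene whose groups did not overlap on TMM-scaled CPM. It had 42.0, 38.8 and 31.7 counts without storage and 80.7, 80.2 and 41.8 after it, not whole in any of the 6 libraries. Its log2 fold change was 0.81 (95% interval 0.19 to 1.43), with an adjusted p of 0.9998 from edgeR. Of 17 symbols of other Tudor domain genes 4 were counted and tested. Either tool called 0 of the 4, with 0 at an unadjusted p under 0.05 and a median of -0.0068. The groups did not overlap in 0 of the 4, against 8.56% of all tested genes. Of these, akap1b is given above, and setdb1b, a histone methyltransferase, and lbr, the lamin B receptor, had log2 fold changes of -0.066 and 0.032.

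**Figure D4:**
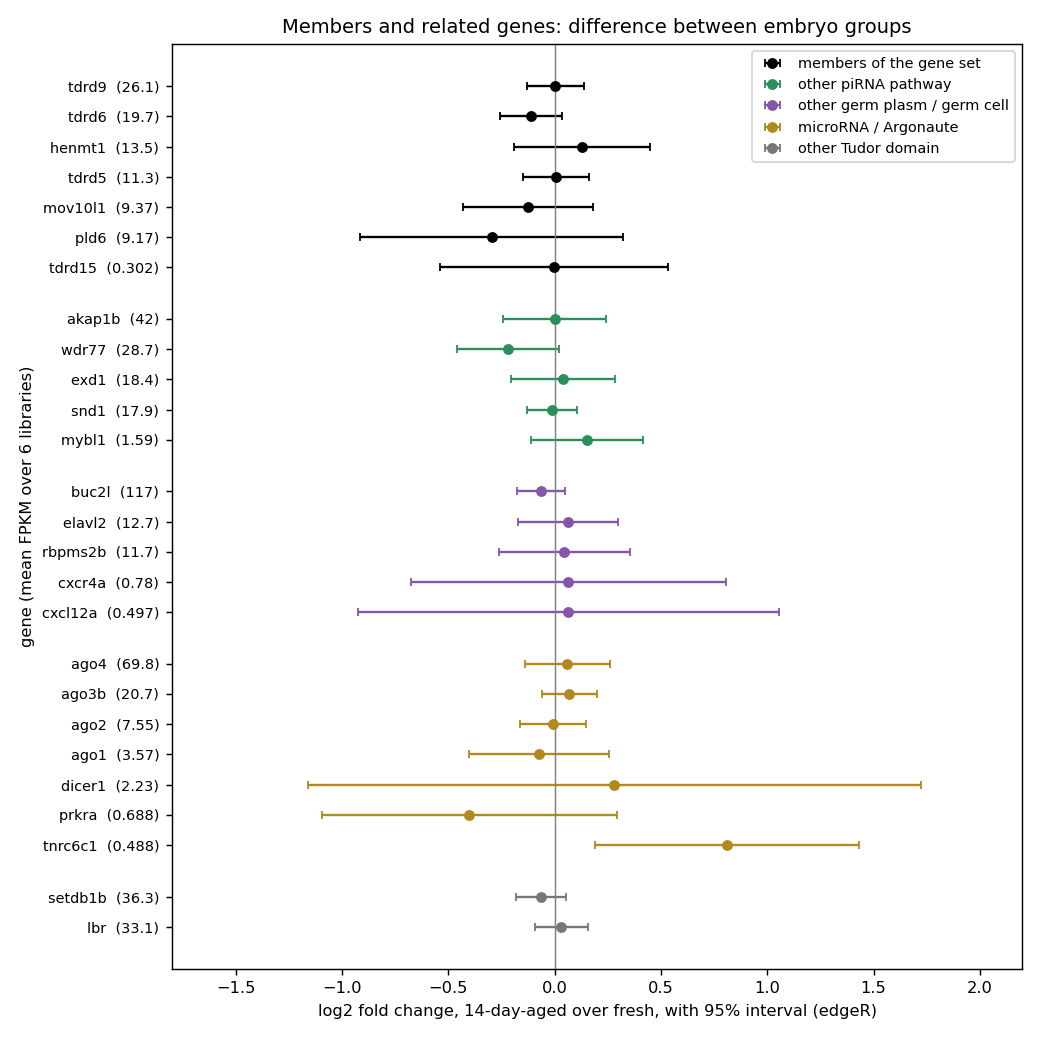
Log2 fold change of embryos from 14-day-aged over embryos from fresh sperm with its 95% interval (horizontal axis, edgeR) for the 7 tested genes of the set in black and for the tested genes of the 4 related lists in colour, with the mean FPKM over 6 libraries beside each name. akap1b and snd1 are on 2 lists and drawn once, and tnrc6c1, at 0.81 with an adjusted p of 0.9998, is the 1 gene whose interval leaves out 0.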

How the data were processed

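The authors enriched mRNA with oligo(dT), sequenced it on DNBSEQ, used HISAT2 against ASM1834038v1, built transcripts by StringTie with Cuffmerge, and counted after a Bowtie2 alignment to those transcripts. The submitters' processing notes give no versions. The deposited values are estimated counts, FPKM and TPM per gene, and per the file headers RSEM made them. TPM was not used. The deposited files list counts above 0, and a gene missing from a library was taken as 0. The authors' comparison table (p-value, corrected p-value and fold change from DESeq2) was not used.

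Estimated counts were rounded to whole numbers, and edgeR 4.0.16 under R 4.3.3 ran its quasi-likelihood test (filterByExpr, TMM, Benjamini-Hochberg adjustment, threshold 0.05), with no replicate block. Standard errors are the absolute log2 fold change over the square root of F, and 95% intervals use the t quantile of the fit. Alternatives were DESeq2 1.42.0, RLE factors, other filters, a replicate block, each library left out, and limma 3.58.1 on log2(FPKM + 1) or log2(FPKM + 0.1). The tests were tested on simulated data. Coordinates came from the NCBI gene table of the authors' assembly, in which all 10 genes matched. Tables and figures used matplotlib 3.10.9, scipy 1.17.1, numpy 2.4.6 and pandas 2.3.3 on Python 3.11.15.

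The genes, lists and tests were chosen with earlier results of these data known. Every tested gene of the set is named. From each list the called genes, otherwise the 3 of highest FPKM, are named, and mybl1, cxcr4a, cxcl12a and tnrc6c1 in addition. The list genes snd1, ago1, dicer1 and prkra were tested and are not described further. fkbp6, rgs14b, grip2a and ackr3b were counted but not tested. Marker lists had 4 of 8 maternal, 8 of 13 zygotic, 2 of 7 enveloping layer, 4 of 9 sperm and testis and 2 of 6 ovary and blood symbols with a count. Their summed CPM over the 6 libraries lay at 2784 to 3241, 1537 to 1777, 0.851 to 3.31, 37.2 to 49.0 and 43.3 to 49.5. Most of the zygotic sum came from nanog, at 735 to 866 CPM, and pou5f3, at 651 to 812 CPM. Whether the mRNA of these genes was maternal or zygotic was not tested, so that sum cannot be read as a measure of zygotic transcription. The sperm and testis sum was 41.2 to 49.0 with fresh and 37.2 to 41.6 with stored sperm, overlapping ranges that were not tested. Most of it came from spata18, at 26.5 to 35.9 CPM, and dmrt1, at 8.67 to 11.5 CPM.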

Additional observations from a re-analysis of the deposited data

How the results depend on the processing

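In 14 alternatives, 0 of the 7 tested genes were called, and the lowest adjusted p of any was 0.880. The order of the 10 genes by level was the same on TMM-scaled CPM per kilobase. That measure uses the same counts and effective lengths as FPKM, so it is no independent check of the order. Over all genes edgeR called 4, against 58 in DESeq2, 1 with at least 10 counts in every library, 7 in limma on log2(FPKM + 0.1), and 7 with replicate 3 of both groups left out, an alternative chosen after seeing the data. With single libraries left out it called 3 to 9, the 9 without replicate 3 from fresh sperm. The log2 fold change of tdrd15 then ran from -0.093 to 0.079, of tdrd5 from -0.025 to 0.043 and of tdrd9 from -0.019 to 0.046, so these 3 directions turned with single libraries. Of the annotated genes' counts alone, the set took 0.0440% in embryos from fresh and 0.0427% in embryos from 14-day-aged sperm.

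In edgeR with a replicate block 0 genes over all were called, with 1569 at an unadjusted p under 0.05, and 0 of the 7. With the block, tdrd6 had a log2 fold change of -0.11 (unadjusted p = 0.0629 from edgeR, 0.118 without the block). For pld6 it was -0.33 (unadjusted p = 0.111 from edgeR, 0.293 without the block). Across genes, same-numbered libraries had correlations of -0.00237, 0.0375 and 0.0886 between their deviations from the group mean. Of the 6 libraries 4 correlated best with their own number, which does not settle whether the numbers are pairs. The labels do not say what a number shares, so the main test used no pairs. Adding the counts of the locus with the most similar protein was not run, since no protein sequences were used here. The depth limits nanos1, nanos2, tdrd12 and tdrd15 most, at 27 counts or fewer per library.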
